A study of Rattus norvegicus with 3 samples.

Results

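TRPC and TRPM genes encode cation channels of the transient receptor potential (TRP) family, and 9 of them were described: Trpc1, Trpc4, Trpc5, Trpc6, Trpc7, Trpm2, Trpm3, Trpm4 and Trpm7. They were taken by symbol from tables of 30957 genes, and each of the 9 symbols matched 1 gene. The tissue was the motor cortex. It came from 3 male rats of the outbred Sprague-Dawley stock that had no treatment; the labels call them the normal group and give a time of 8 weeks, without saying whether that is an age. All 3 animals (numbers 32, 39 and 68, 1 mRNA library each) form 1 group, so no treatment was compared, and p-values concern only the spread between these 3 libraries, in which animal, dissection and library preparation cannot be told apart. Values are FPKM, fragments scaled by gene length and by library size, which allows levels of different genes to be compared as far as the gene lengths and the mapping allow.

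TRPC channels open downstream of receptors coupled to Gq and phospholipase C and let sodium and calcium into the cell, which in neurons prolongs depolarisation. Trpc6 and Trpc7 encode channels opened by diacylglycerol, while the products of Trpc4 and Trpc5 form channels alone or with that of Trpc1. TRPM channels differ more among themselves: TRPM2 is opened by ADP-ribose and calcium under oxidative stress, TRPM3 by heat and the steroid pregnenolone sulfate, and TRPM4 by intracellular calcium. TRPM7 carries a protein kinase on its tail and passes magnesium and zinc.

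The libraries held an inferred 15460924 to 17670986 fragments. Genes of cortical tissue were present in every library: the summed FPKM of 8 deep-layer genes was 323, 352 and 331 in animals 32, 39 and 68, and that of 7 glutamatergic genes 2352, 2323 and 1748. Genes of the choroid plexus and of oligodendrocytes rose from animal 32 through 39 to 68. The 9 choroid plexus genes found of 10 listed summed to 11.7, 637 and 7590 FPKM in animals 32, 39 and 68, and 10 oligodendrocyte genes to 2170, 3097 and 5760. Most of the choroid plexus sums was Ttr (8.36, 615 and 7264 FPKM), and the medians of that list were 0.155, 2.95 and 51.0. In bulk tissue, fewer cells of a type and less RNA per cell cannot be told apart.

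Of the 9 channel genes, 8 were called above 1 FPKM in the test described next, and Trpc7 was not. Trpc4 (ENSRNOG00000011133, chromosome 2, 143475323 to 143604972, plus strand, Rnor_6.0) had the highest mean, 8.84 ± 1.21 FPKM (SD, n = 3), followed by Trpm7 (8.62 ± 1.85), Trpm3 (8.42 ± 6.45), Trpm2 (6.59 ± 0.706), Trpc5 (5.85 ± 2.66), Trpc1 (4.50 ± 0.375), Trpc6 (4.32 ± 1.29), Trpm4 (3.68 ± 1.85) and Trpc7 (0.989 ± 0.265). Most of that order was within the spread between animals: of the 8 steps between neighbours, 7 had overlapping ranges, and 1, from Trpm4 to Trpc7, kept its direction in all 3 animals. The place of Trpm3 rested on animal 68, without which its mean was 4.76 FPKM and its rank 6; without either of the other animals its rank was 1.

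**Figure D1:**
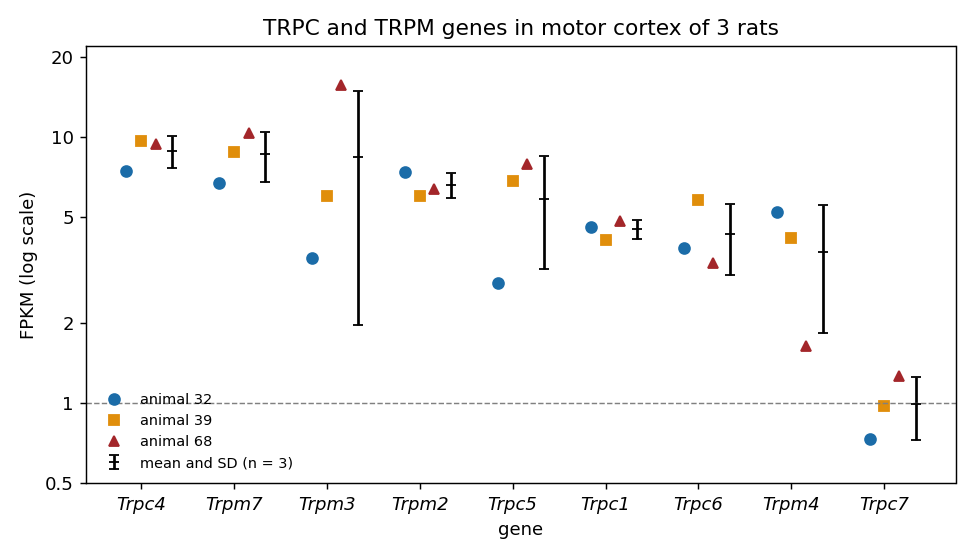
FPKM (log axis) of the 9 TRPC and TRPM genes in each of 3 animals, with the mean and SD beside the points, in order of mean. Trpm3 ranged from 3.52 to 15.7 FPKM and Trpm4 from 1.64 to 5.25, while Trpc1 stayed between 4.10 and 4.84; the dashed line is 1 FPKM.

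Whether a gene's level differed from 1 FPKM was tested for all 16943 genes whose mean reached 0.1 FPKM (limma, moderated one-sample test of log2(FPKM + 0.1), Benjamini-Hochberg adjusted over all of them, threshold 0.05). All 9 channels passed the filter. Called above were 8 of the 9 and called below 0, against 72.2% and 13.9% of all genes tested, so a level above 1 FPKM was common among the genes tested. At an unadjusted p under 0.05, limma also called 0 below. The median of the 9 means was 5.85 FPKM. Among the 13378 genes whose mean reached 1 FPKM, Trpc4 stood at percentile 45.1 and Trpm4 at percentile 21.7, so each of the 8 lay below the middle of the expressed genes.

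Trpc4 and Trpm7 had nearly the same level. Their annotated promoters are shown because they hold the fewest and the most CG among these genes. RefSeq windows of 250 bases before a start, in build GRCr8, matched 8 of the 9 genes, with 2 starts for Trpm3; Trpc1 was not matched. Capitals mark each CG (the same on both strands), the dinucleotide that can carry DNA methylation:
Trpc4, chr2:140501046-140501295, plus strand: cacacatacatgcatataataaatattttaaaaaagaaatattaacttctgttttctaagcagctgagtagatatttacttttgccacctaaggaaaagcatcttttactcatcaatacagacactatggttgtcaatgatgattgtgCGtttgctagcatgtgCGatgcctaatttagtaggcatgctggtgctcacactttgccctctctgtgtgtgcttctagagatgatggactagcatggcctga
Trpm7, chr3:134588114-134588363, minus strand: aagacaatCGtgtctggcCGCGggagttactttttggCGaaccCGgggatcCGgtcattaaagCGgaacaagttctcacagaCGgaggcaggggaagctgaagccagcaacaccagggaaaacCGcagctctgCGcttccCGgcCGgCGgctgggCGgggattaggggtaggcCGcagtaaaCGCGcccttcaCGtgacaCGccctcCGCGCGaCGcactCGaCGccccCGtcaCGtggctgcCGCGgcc
The window of Trpc4 held 2 CG, a number that 28.6% of 33465 such windows of rat genes do not exceed, and that of Trpm7 held 29, which 6.04% reach. The median window held 5 CG, and at least 1 was found in 92.2% of windows. CACGTG, which reads the same on both strands and contains 1 CG, occurred in 2 places in the Trpm7 window and in none of the others of these genes, and 5.59% of all windows held it. Which start the cortex uses was not measured here.

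Trpc4 measured 7.45, 9.66 and 9.42 FPKM in animals 32, 39 and 68. Animal 32 was lowest and the others nearly equal. Its level was 3.01 above 1 FPKM on the log2(FPKM + 0.1) scale (SE 0.12, n = 3; limma adjusted p = 8.67e-06).

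Trpc5 (ENSRNOG00000027233, chromosome X, 115627653 to 115908693, minus strand) encodes the closest relative of TRPC4. It measured 2.84, 6.84 and 7.89 FPKM in animals 32, 39 and 68. Here animal 32 lay apart and low, and the remaining animals were close. The level was 2.31 above 1 FPKM on the log2 scale (SE 0.31; limma adjusted p = 0.00155). A transcript on the other strand inside its locus, Trpc5os, was at 0.181, 0 and 0.170 FPKM.

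Trpc1 (ENSRNOG00000054902, chromosome 8, 103503985 to 103554468, minus strand), whose product mainly serves as a partner subunit, had the smallest log2 SD of the 8 genes whose mean reached 1 FPKM. That rank did not hold without animal 32 or with equal FPKM totals, where Trpm2 varied less. Its values were 4.58, 4.10 and 4.84 FPKM. The SD of its log2 values was 0.12, at percentile 19.8 of the 1338 genes in the same class of mean level. Leaving out animal 32, 39 or 68 moved the percentile to 41.8, 12 or 38.1.

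Trpc6 (ENSRNOG00000006324, chromosome 8, 6811543 to 6917535, plus strand) encodes a channel opened by diacylglycerol that is also known from smooth muscle. It was at 3.82, 5.79 and 3.35 FPKM, highest in animal 39. Genes of mural cells, the muscle cells and pericytes of vessels, shared that feature in 6 of 8 cases. Their sum was 99.0, 129 and 110 FPKM and none was at 0. Of all genes whose mean reached 1 FPKM, 24.1% were highest in animal 39. The part of these cells in the Trpc6 values was not tested.

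Trpc7 (ENSRNOG00000012727, chromosome 17, 8135251 to 8279515, plus strand), a close relative of Trpc6, was the lowest at 0.732, 0.974 and 1.26 FPKM. At the inferred depth that is 12.1, 15.1 and 22.3 fragments per kilobase. Counting error was not computed, because it also depends on the transcript length, which is not given. Its level did not differ from 1 FPKM beyond the spread (log2 difference -0.04, SE 0.23; limma adjusted p = 0.866). Only animal 68 exceeded 1 FPKM.

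Trpm7 (ENSRNOG00000057806, chromosome 3, 119259467 to 119330345, minus strand) measured 6.69, 8.79 and 10.4 FPKM. Animal 32 was lowest and animal 68 highest, 1.55-fold apart. The level was 2.96 above 1 FPKM on the log2 scale (SE 0.15; limma adjusted p = 2.41e-05).

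Trpm2 (ENSRNOG00000001216, chromosome 20, 11436267 to 11482051, plus strand) measured 7.37, 6.01 and 6.39 FPKM. Its channel is known from microglia as well as neurons. The values lay close together, with a log2 SD of 0.15, percentile 33.3 of its class of mean level. Without animal 32 the percentile was 19.5 and without animal 68 it was 68.3. The 10 microglial genes summed to 84.7, 120 and 166 FPKM, and none was at 0. All 10 were lowest in animal 32 and highest in animal 68, an order found in 32.9% of all genes whose mean reached 1 FPKM. Their part in the Trpm2 values was not tested.

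Trpm3 (ENSRNOG00000027770, chromosome 1, 240355149 to 240757583, plus strand) had the widest spread of the 9. It measured 3.52, 6.0 and 15.7 FPKM in animals 32, 39 and 68, a 4.47-fold range. The log2 SD was 1.08, at percentile 98.1 of the 1338 genes in the same class of mean level. Without animal 68 the log2 SD was 0.53, at percentile 91.8 of its class, and Trpc5 varied more (0.88). Under quantile normalization Trpm4 varied more than Trpm3 (1.01 against 0.99). The level was 2.68 above 1 FPKM on the log2 scale (SE 0.42; limma adjusted p = 0.00277).

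The choroid plexus, the epithelium that makes cerebrospinal fluid, is known to express Trpm3. All 9 choroid plexus genes found were likewise lowest in animal 32 and highest in animal 68, and none was at 0. So were 4 of 5 ependymal genes (sums 22.1, 33.3 and 63.6 FPKM), 10 of 10 oligodendrocyte genes and 7 of 10 astrocyte genes (sums 794, 909 and 1711). This order was also that of 6 of 6 oligodendrocyte precursor genes (sums 144, 202 and 320) and 10 of 10 microglial genes. Meningeal genes had it in 2 of 6 cases (sums 29.9, 39.1 and 94.2 FPKM; Col1a2 was at 0) and striatal genes in 5 of 10 (130, 104 and 247). The same order held for 32.9% of all genes whose mean reached 1 FPKM and for 3 of the 8 channels at that level. What part these cells have in the Trpm3 values was not tested. Aldh1a7, on the other strand inside the Trpm3 locus, was at 0, 0.388 and 1.21 FPKM. Trpv4, a relative also known from the choroid plexus and named after its values were seen, measured 0.169, 0.504 and 3.88 FPKM in the same animals. Of the 18 other TRP genes analysed, 6 had this order, Trpv4 among them, and 6 had the reverse. The reverse order held for 21.8% of all genes whose mean reached 1 FPKM, a level that most of the 18 did not reach.

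Trpm3 has a pair of annotated starts in RefSeq, 1 far inside the gene, and the deposited tables give a single value for it. The deposited locus is given in Rnor_6.0 and the starts in GRCr8, and whether that locus covers both starts was not tested. The windows are shown because the deposited value does not tell which start was used:
Trpm3 outer start, chr1:229099491-229099740, plus strand: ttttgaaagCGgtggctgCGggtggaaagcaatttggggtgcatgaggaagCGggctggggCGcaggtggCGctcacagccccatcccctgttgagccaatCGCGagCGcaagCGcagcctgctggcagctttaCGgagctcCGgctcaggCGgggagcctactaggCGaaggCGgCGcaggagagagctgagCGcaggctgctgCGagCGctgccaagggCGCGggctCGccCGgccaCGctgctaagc
Trpm3 inner start, chr1:229435260-229435509, plus strand: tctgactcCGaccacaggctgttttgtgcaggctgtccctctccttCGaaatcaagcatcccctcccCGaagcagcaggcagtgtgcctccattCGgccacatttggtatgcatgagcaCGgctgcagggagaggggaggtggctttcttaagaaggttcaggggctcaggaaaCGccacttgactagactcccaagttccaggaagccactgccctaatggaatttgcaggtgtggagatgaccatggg
The outer window held 23 CG (12.3% of windows have as many or more) and the inner 6 (49.8% have as many or more).

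Trpm3 also holds a microRNA gene, Mir204, within its bounds in GRCr8, and its relative Trpm1 holds Mir211. Mature miRNAs were not measured in these mRNA libraries. Their 5p arms are shown because they share the seed (bases 2 to 8, in capitals) although their host genes stood far apart in level:
rno-miR-204-5p: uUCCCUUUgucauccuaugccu
rno-miR-211-5p: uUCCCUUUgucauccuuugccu
Counted from 1 at the 5′ end, miR-204-5p differs from miR-211-5p by A17U alone over 22 bases. No other of 724 mature rat miRNAs in the table has this seed. The host Trpm3 was at 8.42 ± 6.45 FPKM and the host Trpm1 at 0.0824 ± 0.0373.

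Trpm4 (ENSRNOG00000020714, chromosome 1, 101293409 to 101323960, minus strand) ran the opposite way. It measured 5.25, 4.16 and 1.64 FPKM in animals 32, 39 and 68, a 3.20-fold range, with animal 68 apart from the others. Its log2 SD of 0.86 lay at percentile 93.7 of its class, but at 67.3 without animal 68. The level was 1.63 above 1 FPKM on the log2 scale (SE 0.35; limma adjusted p = 0.00867).

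The order of Trpm4 was shared by part of the neuronal and vascular lists. Of 7 upper-layer genes found, 5 were highest in animal 32 and lowest in animal 68 (sums 368, 304 and 180 FPKM), as were 6 of 8 GABAergic genes (520, 468 and 325) and 6 of 8 pan-neuronal genes (3336, 2892 and 2341). It held for 4 of 7 glutamatergic genes and 4 of 7 endothelial genes (sums 118, 106 and 94.9), but for 2 of 8 deep-layer genes, of which 3 had the reverse order. Of the 8 mural cell genes, also vascular, 0 had it (sums 99.0, 129 and 110). None of these genes was at 0. Over all genes whose mean reached 1 FPKM the share was 21.8%. The part of cell composition in the Trpm4 values was not tested.

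**Figure D2:**
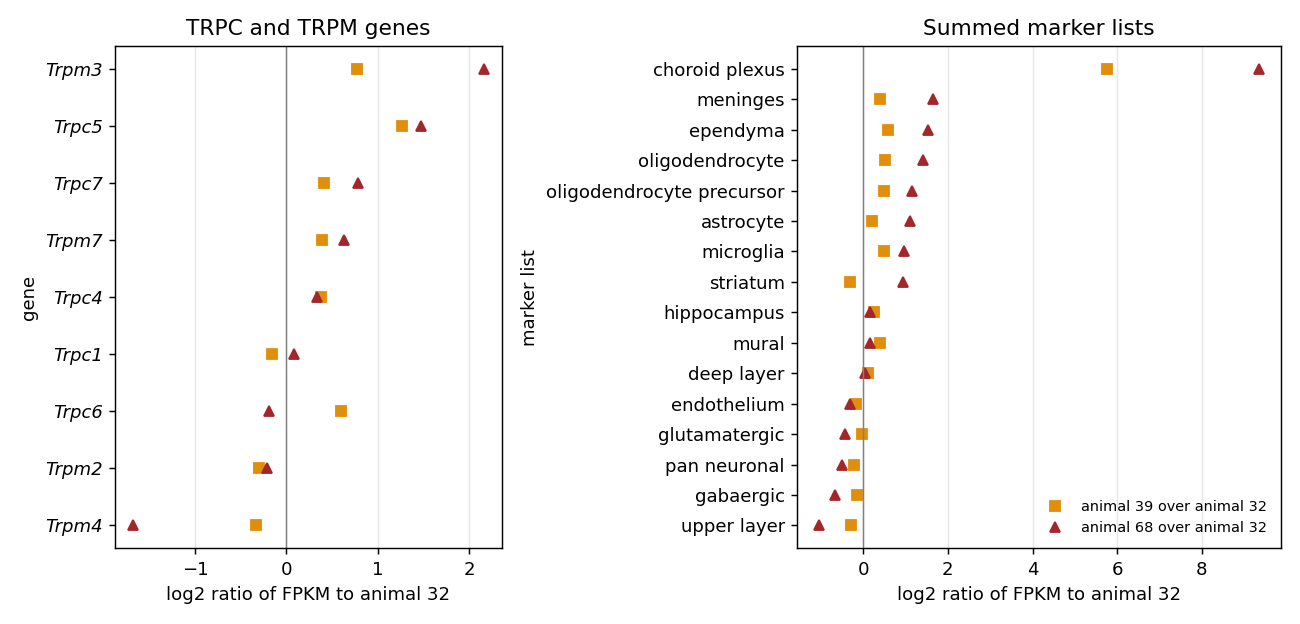
Log2 ratio of FPKM in animals 39 and 68 to animal 32, for each TRPC and TRPM gene (left) and for the summed FPKM of each list of cell type markers (right; the horizontal scales differ). For animal 68, Trpm3 lay at the upper end and Trpm4 at the lower end of the genes, and choroid plexus and upper-layer genes at the ends of the lists; for animal 39, Trpc5 lay above Trpm3 and striatal genes below upper-layer genes.

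A range of over 2-fold between animals was found for Trpm3, Trpm4 and Trpc5, 3 of the 8 channels whose mean reached 1 FPKM, against 15.2% of all genes at that level. The log2 SD of Trpc5 was 0.78, at percentile 96.4, but at 40.8 without animal 32. Under 4 other scalings, the ratio of animal 68 to animal 32 ran from 3.90 to 4.68 for Trpm3 and from 2.32 to 2.91 for Trpc5. That of animal 32 to animal 68 for Trpm4 ran from 3.06 to 4.0.

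Genes with the most similar profile were sought by the Euclidean distance between log2(FPKM + 0.1) values centred on each gene's mean over the 3 animals, among 13377 other genes. With 3 points this measure is coarse. Nearest to Trpm3 were Lrrc46 (distance 0.020; 1.54, 2.68 and 7.21 FPKM), Yap1 (0.029; 1.98, 3.51 and 9.22), a transcriptional coactivator, and AABR07017693.1 (0.031). Nearest to Trpm4 were Rgs6 (0.0077; 16.5, 13.1 and 5.26 FPKM), a regulator of G protein signalling, Stx1a (0.015; 162, 127 and 52.5), a presynaptic fusion protein, and Bmper (0.018). Nearest to Trpc5 were Wipf3 (0.018; 27.4, 63.9 and 74.9 FPKM), AC095947.2 (0.043) and LOC100362987 (0.050). Within a distance of 0.1 lay 10 genes for Trpm3, 11 for Trpm4 and 14 for Trpc5, against 797 for Trpc1. Over the 8 channels whose mean reached 1 FPKM, this count was smaller the larger the channel's own log2 SD. These 3 were chosen for a wide spread, so their low counts are no separate result.

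How each channel stood against its closest relative was examined for 7 pairs as the ratio within each animal. Trpm7 exceeded Trpm6, the other channel with a kinase, by 4.94 on the log2 scale (8.62 against 0.182 ± 0.0412 FPKM), and Trpc6 exceeded Trpc7 by 2.01. Trpc1 lay under Trpc4 in 3 of 3 animals, with a log2 ratio of -0.95. Trpc4 exceeded Trpc5 by 0.70 on average, with 1.36 in animal 32 but 0.49 and 0.25 in animals 39 and 68.

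In the planned limma test, with every gene set against the same channel and p adjusted over 16942 genes, all 4 pairs passed. Adjusted p was 5.11e-19 for Trpm7 over Trpm6 (SE 0.52), 1.79e-05 for Trpc6 over Trpc7 (SE 0.46), 0.000769 for Trpc1 and Trpc4 (SE 0.15) and 0.00253 for Trpc4 over Trpc5 (SE 0.21). The background is that 48.3% of genes were called lower than Trpm7, 31.9% lower than Trpc6, 51.6% higher than Trpc1 and 50.0% lower than Trpc4. All ratios of that test share 1 gene, which makes its p-values too small. With each ratio's prior variance taken from the fit of levels, an alternative added after seeing the data, limma gave adjusted p = 0.00042, 0.00336, 0.0049 and 0.0538 in the same order, with backgrounds of 47.1%, 31.5%, 50.1% and 48.5%. Trpc4 over Trpc5 thus no longer passed, and in the planned test it failed without animal 32 (log2 ratio 0.37, adjusted p = 0.0839).

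For 3 TRPM genes the relative lay under the 0.1 FPKM filter and was not tested. The channel was far higher in each animal. Trpm5, like Trpm4 a channel opened by calcium, measured 0.0348, 0.0186 and 0.0326 FPKM. Trpm1, the relative of Trpm3, measured 0.0721, 0.0514 and 0.124 FPKM. Trpm8, the cold receptor and relative of Trpm2, measured 0.16, 0.0622 and 0.0681 FPKM.

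**Figure D3:**
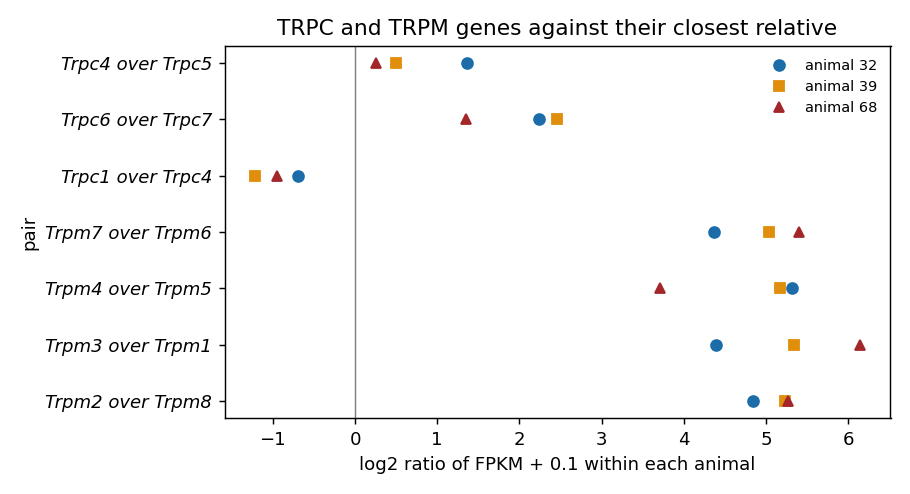
Log2 ratio of FPKM + 0.1 within each animal for 7 pairs of a channel and its closest relative. Points right of 0 have the first gene higher; Trpc1 over Trpc4 lay left of 0 in all 3 animals, and the TRPM pairs lay between 3.71 and 6.14.

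Of 18 other TRP genes analysed, 12 passed the filter, 3 were called above 1 FPKM, 7 below and 2 neither (limma, over all genes as above). Over all genes tested, 72.2% were called above and 13.9% below. The median of the 18 means was 0.216 FPKM. The 3 were the lysosomal channel gene Mcoln1 (26.5 ± 3.56 FPKM), the polycystin gene Pkd2 (8.17 ± 1.26) and Trpv2 (5.37 ± 1.24). Neither above nor below were Trpc2 (0.620 ± 0.0904) and Trpv4. Trpv5 and Pkd2l1 were listed at 0 in each library, which need not mean absence. The 9 TRPC and TRPM genes held 47.3, 55.4 and 58.0% of the summed FPKM of the 27 TRP genes analysed in animals 32, 39 and 68. The 5 TRPC genes summed to 19.4, 27.4 and 26.8 FPKM and the 4 TRPM genes to 22.8, 25.0 and 34.1.

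**Figure D4:**
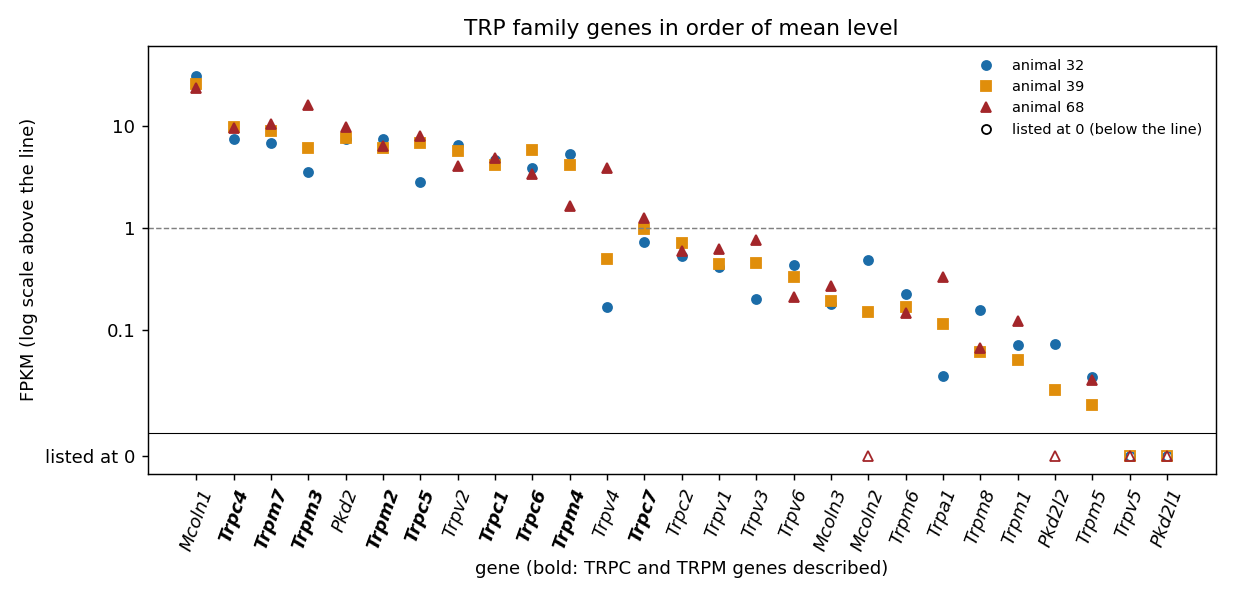
FPKM (log axis above the solid line) of 27 TRP family genes in each animal, in order of mean, with the 9 genes described in bold and values listed at 0 under the line. Mcoln1 led at 26.5 FPKM, 8 of the 9 lay above the dashed line at 1 FPKM, and most other family genes lay under it.

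The counts of the pathway lists are to be read against the 72.2% of all genes tested that were called above 1 FPKM and the 13.9% called below. Of 20 Gq-coupled receptors, G proteins and phospholipases, 17 were called above and 1 below, with a median of 8.74 FPKM. Highest were the G protein gene Gnaq (63.6 ± 6.36 FPKM), the muscarinic receptor gene Chrm1 (61.6 ± 11.6) and the phospholipase gene Plcb1 (51.2 ± 7.71). In the store-operated calcium list, 9 of 10 genes found were called above and 0 below, again beside 72.2% and 13.9% (median 13.5 FPKM). It was led by the IP3 receptor gene Itpr1 (63.3 ± 3.14), the calcium sensor gene Stim2 (28.1 ± 6.93) and the scaffold gene Homer1 (20.5 ± 3.43). Of 8 genes for proteins that bind TRPC channels, 7 were above and 1 below, beside the same shares of all genes. They were led by the immunophilin gene Fkbp1a (380 ± 10.3), the calcium-binding protein gene Cabp1 (60.2 ± 23.4) and the immunophilin gene Fkbp4 (59.5 ± 2.72).

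All 4 genes of the sulfonylurea receptor list were called above 1 FPKM, against 72.2% of all genes tested. Abcc8, which encodes the receptor SUR1 that can join TRPM4 as well as potassium channels, measured 14.9, 14.4 and 8.93 FPKM, and Kcnj11, its potassium channel partner, 18.5, 17.7 and 9.12. Both were highest in animal 32 and lowest in animal 68, as Trpm4 was, an order found in 21.8% of all genes whose mean reached 1 FPKM. Abcc9 measured 3.57 ± 0.467 FPKM and was highest in animal 68. In all, 2 of the 4 genes, Abcc9 among them, had the reverse order, which 32.9% of all genes at that level had.

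Of 8 ADP-ribose genes found, 7 were above and 1 below, against 72.2% and 13.9% of all genes tested (median 9.05 FPKM). The ADP-ribose hydrolase gene Nudt9 was at 35.7 ± 0.250 FPKM, the polymerase gene Parp1 at 21.9 ± 0.445 and Adprhl2 at 19.8 ± 2.02. The range between animals in this list ran from 1.01-fold for Nudt9 to 2.63-fold for Cd38, named after its values were seen, with Trpm2 at 1.23-fold. Of 12 genes linked to magnesium transport, 11 were above and 0 below, beside the same shares of all genes (median 13.5 FPKM), led by Tusc3 (62.2 ± 4.12), Cnnm1 (40.7 ± 12.3) and Nipa1 (24.2 ± 4.52).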

How the data were processed

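Libraries were made from mRNA separated out of total RNA, per the labels' protocols. The authors deposited 1 FPKM table per animal. Per the submitters' processing notes, HISAT2 2.0.4 and StringTie 1.3.0 were used with Rnor_6.0. For annotation release, strandedness and gene lengths, the entry is: not given in the sources used here. Without strand, overlapping genes cannot be told apart.

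Depth was inferred from genes with spans up to 400 bases, where 82.0 to 86.6% of values lay within 0.02 of a whole fragment (these include the genes that set it); it covers counting error only. No gene above 0 had the same value in 2 libraries.

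Values were analysed as log2(FPKM + 0.1), which understates changes of low genes, with limma 3.58.1 in R 4.3.3, Python 3.11.15 and pandas 2.3.3. Prior degrees of freedom were 2.63 for levels. On simulated data of 16943 genes the level test recovered 77% of genes at a log2 difference of 1 and 97% at 2, with 6 false calls. The planned pair test recovered 92% and 100%, with 159 false calls among 16942 genes. The pair test with the added prior recovered 6% and 95%, with 1 false call. In each simulation all genes lay at 1 FPKM except 100 at each difference, and variance did not depend on level. Levels in the data vary widely, so these rates need not hold for them.

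Of 220 listed symbols, 213 were found, and 1 gene is not reported here. Named are all 9 genes, their relatives, up to 3 genes with the highest mean per list, other TRP genes called above 1 FPKM, and the 3 nearest profiles of genes at or over percentile 75 in spread. The genes and lists were chosen with earlier results of these data known. Alternatives changed the pseudocount, filter, scaling, prior, bound and animals.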

Additional observations from a re-analysis of the deposited data

How the results depend on the processing

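Over 15 alternatives, 7 to 9 of the 9 genes were called above 1 FPKM; Trpc7 and Trpm4 changed with the bound. Against 0.5 FPKM, Trpc7 was above (log2 difference 0.83). Against 2 FPKM, 1 gene, Trpc7, was called below (-0.98), and Trpm4 did not pass (0.70, limma adjusted p = 0.115). The other 7 genes kept their call in all 15. With no filter 7 pairs passed. Under the other alternatives 3 to 5 did: 5 under quantile normalization and without animal 39 or 68, and 3 with a filter at 0.5 FPKM, which leaves out Trpm6. Trpc4 over Trpc5 lost its call without animal 32 and with the added prior, and the other 3 pairs kept theirs wherever they were tested. With 1 animal left out, 4 to 6 of the 8 neighbours kept their order (4 without animal 32), and 3 to 5 genes had a spread at or over percentile 75 (5 without animal 68). The 4 scalings kept all 8 neighbours in order and moved the median gene by at most 0.065 on the log2 scale. No paired analysis was possible because all animals form 1 group. The number of libraries and the inferred depth limit statements on Trpc7 and on genes near 0.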
